A study of Drosophila melanogaster with 3 samples.

Results

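The 35 protein-coding genes for aminoacyl-tRNA synthetases were examined for binding of the zinc finger protein pad, out of 13945 protein-coding genes. They were chosen by their symbols in the Ensembl BDGP6 annotation, an amino acid abbreviation followed by RS and, for mitochondrial enzymes, by -m. The chromatin immunoprecipitation sequencing (ChIP-seq) data came from whole adult female Drosophila melanogaster of unknown age. The flies were of a transgenic line that stably expresses pad with GFP fused to its C terminus, and an antibody against GFP was used. There were 3 biological replicates of this single group, so that no treatment, genotype or stage was compared. Whole flies mix all tissues, so a peak does not say in which cells the protein was bound.

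Aminoacyl-tRNA synthetases join each amino acid to its tRNA and so set the reading of the genetic code. Class I and class II enzymes have unrelated catalytic folds. Most amino acids have a cytosolic enzyme and a separate nuclear-encoded enzyme that is imported into mitochondria, while some genes supply both, as LysRS and GlyRS do in mammals. The protein pad (poils au dos) is known in flies as a repressor of proneural genes.

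By symbol, 20 of the genes were cytosolic and 15 mitochondrial. Every gene without -m was called cytosolic, although some of these are known to serve both compartments. No -m member was found for glutamine, glycine, histidine, lysine or threonine. The cytosolic set held the bifunctional GluProRS and the genes of both PheRS subunits. The members were spread over 5 chromosome arms, all of which held bound genes.

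In the peak list that passed a reproducibility cut, cytosolic synthetase genes often carried a pad-GFP peak at the promoter and mitochondrial ones seldom did. A gene was called bound where the summit of a peak lay within 250 bp of an annotated start site. The peaks were the 6659 on the dm6 build that had passed the authors' analysis of the irreproducible discovery rate (IDR), a comparison of peak ranks between replicates. Of the 35 members 15 were bound (42.9%, exact Clopper-Pearson 95% interval 26.3 to 60.6%), where 24.4% of all coding genes were bound by the same rule. They were 13 of the 20 cytosolic genes (65%, 40.8 to 84.6%) and 2 of the 15 mitochondrial genes (13.3%, 1.66 to 40.5%). The mitochondrial interval includes the 24.4% of all coding genes. Within 100 bp of a start site only 5 of the 35 members were bound (14.3%), against 13.7% of all coding genes, so the excess was not seen at that distance. The intervals cover the counting of genes only, and no test was made over genes, which are not replicates.

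The replicate lists gave the same order of the sets. In the 6659 strongest peaks of each replicate, 12, 12 and 9 cytosolic genes were bound in replicates 1, 2 and 3, or 55% ± 8.66 (SD, n = 3). Of the mitochondrial genes 3, 1 and 1 were bound, or 11.1% ± 7.7 (SD, n = 3). All coding genes were bound in 24.6%, 24.1% and 23.2% of cases in these lists. In these lists of 6659 peaks the cytosolic share was thus above that of all coding genes in each replicate, and the mitochondrial share below it. For the mitochondrial genes this order did not hold in the complete lists, given further below.

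**Figure D1:**
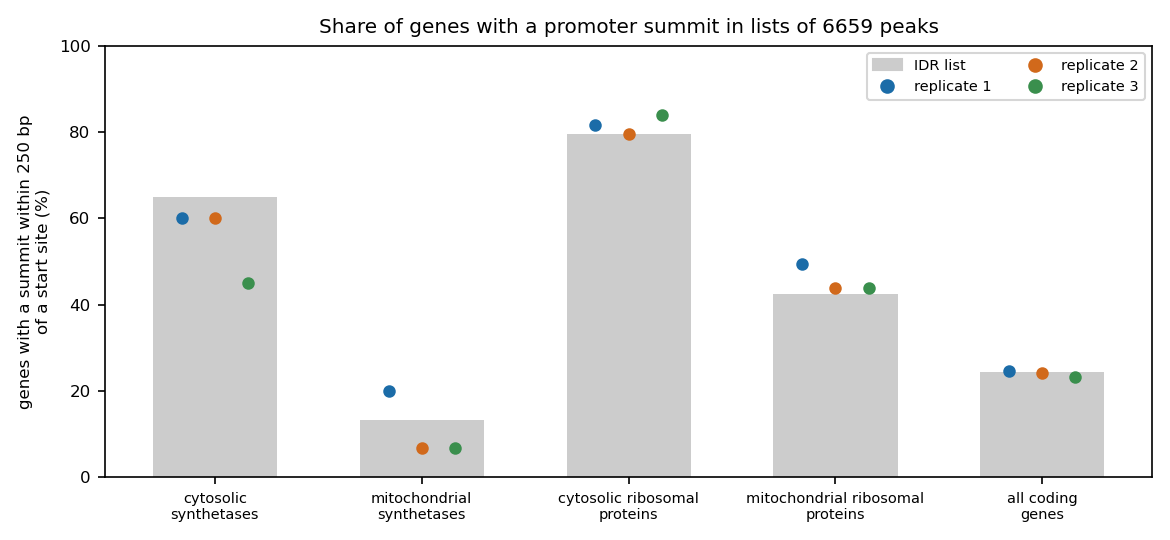
Share of genes (%) called bound, with the 250 bp limit, for the IDR list (bars) and the 6659 strongest peaks of each replicate (points). Cytosolic synthetase genes reached 65% in the IDR list and mitochondrial ones 13.3%, on either side of the 24.4% of all coding genes.

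For comparison, genes for cytosolic ribosomal proteins were bound in 74 of 93 cases (79.6%) and genes for mitochondrial ribosomal proteins in 31 of 73 (42.5%), by symbol and the same rule. In these sets too the cytosolic share was the higher, and both were above the share of the synthetases of the same compartment. The difference between sets was not tested.

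Among the cytosolic genes, those of class II were bound in 8 of 10 cases and those of class I in 4 of 9, against 24.4% of all coding genes. Class II here counts both PheRS subunit genes. GluProRS, which holds an enzyme of each class, was also bound. Of the mitochondrial genes 1 of 6 in class II and 1 of 9 in class I were bound. The difference between classes was not tested. Of the 8 genes whose products form the multisynthetase complex in mammals, 7 were bound, all except LeuRS. Of the other 12 cytosolic genes 6 were bound. The grouping by complex was chosen after the values were seen. All 8 complex genes had an opposite-strand coding start site within 500 bp upstream, and 47.3% of all coding genes with such a partner were bound. When a summit counted for the nearest gene only, ArgRS, AspRS, LysRS and MetRS of the complex and SerRS of the others were lost. The difference between these groups was not tested.

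SerRS, the enzyme for serine, had the strongest peak of all members. In replicates 1, 2 and 3 this peak ranked 313, 764 and 409 among 30000 peaks and background regions ordered by signal, a mean of 495 ± 238 (SD, n = 3). In the IDR list it ranked 518, with a signal of 2270 in the authors' own measure of peak strength. It was the only member among the 1000 strongest IDR peaks. The peak at chr2L:3037149-3037634 had its summit 10 bp upstream of the SerRS start site and 2 bp from a start site of CG17260, which is transcribed in the opposite direction. The summit fell in an annotated exon of CG17260, and it cannot be assigned to either gene.

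A group of 7 cytosolic genes followed with IDR ranks from 1858 to 2866. GluProRS ranked 1062, 3007 and 1881 in replicates 1, 2 and 3, a mean of 1983 ± 977 (SD, n = 3). Its enzyme charges both glutamate and proline tRNAs. AsnRS ranked 1660, 2536 and 2112, a mean of 2103 ± 438 (SD, n = 3). GlyRS ranked 1755, 2887 and 2351, a mean of 2331 ± 566 (SD, n = 3). AsnRS ranked ahead of GlyRS in every replicate, while GluProRS was ahead of both in replicates 1 and 3 and behind both in replicate 2. For GlyRS in replicate 3 a stronger summit, of rank 2132, lay at -257 bp, just beyond the limit, and is not the one ranked here.

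ThrRS, IleRS, beta-PheRS and AspRS completed that group. ThrRS ranked 1398, 2571 and 3081, a mean of 2350 ± 863 (SD, n = 3). IleRS ranked 2091, 3292 and 2986, a mean of 2790 ± 624 (SD, n = 3). For both genes replicate 1 gave the strongest rank, as it did for 11 of the 14 bound members listed in all 3 replicates and for 54.2% of bound coding genes so listed. The gene of the beta subunit of the phenylalanine enzyme, beta-PheRS, ranked 2280, 3257 and 3438, a mean of 2992 ± 623 (SD, n = 3). AspRS ranked 1337, 4018 and 2378, a mean of 2578 ± 1352 (SD, n = 3), the widest spread of the 7. Its peak, at chr2R:12880054-12880264, lay 137 bp upstream of the second of 3 start sites, in an exon of Nmda1, and not at the start site of the canonical transcript. For ThrRS and AspRS in replicate 3, stronger summits of ranks 2845 and 2146 lay at -270 and -279 bp, just beyond the limit. They are not the ones ranked here.

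The other bound cytosolic genes had weaker peaks. MetRS ranked 5193, 4076 and 6834, with an IDR rank of 4248. GlnRS ranked 4821, 4841 and 7522, with an IDR rank of 4975. LysRS ranked 7753, 5060 and 8791, with an IDR rank of 5543. Each of these genes thus had a replicate in which its peak fell outside the 6659 strongest.

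ArgRS and alpha-PheRS rested on the replicates unequally. The gene of the alpha subunit, alpha-PheRS, ranked 11507, 4280 and 12497, a mean of 9428 ± 4486 (SD, n = 3), so that replicate 2 alone placed it among the 6659 strongest. It was the gene lost when IDR peaks had to be found again among the 10000 strongest peaks of both other replicates, whichever replicate was left out. ArgRS, with an IDR rank of 3316, had a summit inside the limit in replicate 1 alone, at rank 2152. In replicates 2 and 3 the strongest summits within 1000 bp lay at -261 and -260 bp from the start site, just beyond the limit, and had ranks of 4862 and 4359.

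On dm6, the peaks lay as follows. Those of intermediate rank were GluProRS (FBgn0005674) at chr3R:23958328-23958712, ThrRS (FBgn0027081) at chr2L:12103481-12103681, AsnRS (FBgn0086443) at chr2L:19131879-19132116 and GlyRS (FBgn0027088) at chr3L:15094958-15095163. Others of that group were IleRS (FBgn0027086) at chr3L:22288405-22288616 and beta-PheRS (FBgn0039175) at chr3R:24252628-24252816. Among the weaker peaks were ArgRS (FBgn0027093) at chrX:15844095-15844584, MetRS (FBgn0034401) at chr2R:18850489-18850978 and GlnRS (FBgn0027090) at chr3R:25265537-25266026. The weakest cytosolic ones were LysRS (FBgn0027084) at chrX:9608821-9609310 and alpha-PheRS (FBgn0030007) at chrX:8145463-8145952. The mitochondrial peaks were ArgRS-m (FBgn0037526) at chr3R:7886611-7887100 and ProRS-m (FBgn0027082) at chr3L:2651787-2652276.

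**Figure D2:**
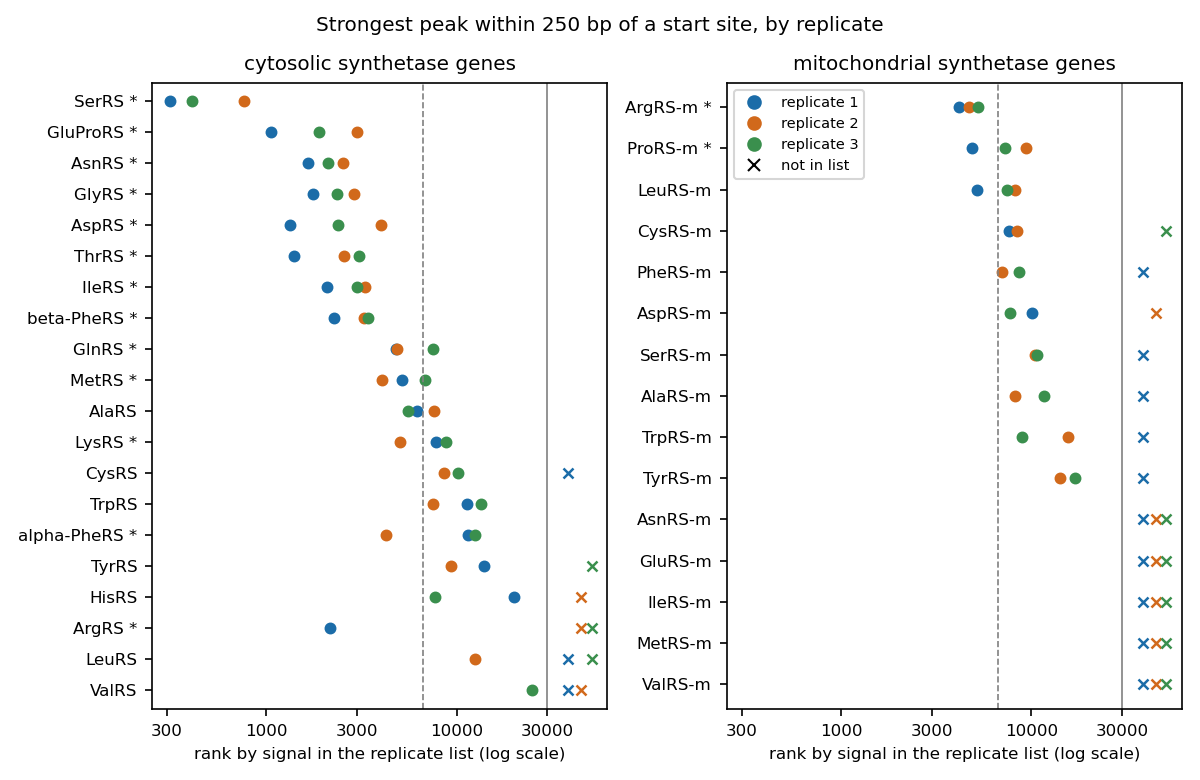
Rank by signal (log scale) of the strongest peak within 250 bp of a start site of each synthetase gene in replicates 1, 2 and 3. Crosses mark genes with none, asterisks the 15 genes bound in the IDR list, the dashed line rank 6659 and the solid line the end of the lists at 30000. SerRS led with ranks from 313 to 764, and 5 mitochondrial genes had no such peak within 250 bp in any replicate list.

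The bound mitochondrial genes were ArgRS-m and ProRS-m, for the imported arginine and proline enzymes. ArgRS-m ranked 4190, 4678 and 5245, a mean of 4704 ± 528 (SD, n = 3), and its IDR rank was 4558. ProRS-m ranked 4884, 9354 and 7276, a mean of 7171 ± 2237 (SD, n = 3). Its IDR rank of 6641 was the weakest of the members, and its signal of 264 was close to the end of the list. None of the 15 mitochondrial genes was bound with the 3000 strongest IDR peaks, where 8 of 20 cytosolic genes (40%) and 12% of all coding genes were. With so few mitochondrial genes, a count of 0 is not far from the share of all coding genes, and the difference was not tested.

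Unbound mitochondrial genes split into weak peaks and none. AsnRS-m, GluRS-m, IleRS-m, MetRS-m and ValRS-m had no summit within 250 bp in the pooled list or in any replicate list. Such absence was not particular to this set. In the pooled list 66.7% of the mitochondrial genes had a summit, against 50.7% of all coding genes. MetRS-m was the farthest from binding, with its nearest IDR summit at -23475 bp from the start site. AlaRS-m, AspRS-m, CysRS-m, PheRS-m, SerRS-m, TrpRS-m and TyrRS-m had such a summit in 2 replicate lists each, at ranks from 6995 for PheRS-m to 16884 for TyrRS-m. LeuRS-m had a summit in all 3 lists, at ranks 5206, 8253 and 7416, and a pooled rank of 6869, just past the last IDR rank. Its nearest IDR summit lay at -795 bp, and a stronger one, of rank 2055, lay at -1000 bp, exactly at the wider limit, in an intron of Dhc64C, the dynein heavy chain gene.

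Unbound cytosolic genes were AlaRS, CysRS, HisRS, LeuRS, TrpRS, TyrRS and ValRS. AlaRS was the closest to the limit, with replicate ranks of 6227, 7635 and 5570 and a pooled rank of 7004. TrpRS ranked 11340, 7513 and 13397. CysRS and TyrRS had summits in 2 replicate lists and LeuRS in replicate 2 alone, at rank 12462. These weak peaks lie in lists that hold background regions as well as peaks.

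HisRS and ValRS had IDR summits farther from the start site. The HisRS summit, of IDR rank 2842, lay 721 bp downstream in a HisRS exon, and the replicates placed it at 722, 711 and 709 bp with ranks of 3910, 2446 and 3376. HisRS shares its start site with a transcript of Bx, which encodes a LIM-only protein. Close to the start site HisRS had weaker summits in replicates 1 and 3, at 27 and 39 bp with ranks of 20112 and 7712, and ValRS had such a summit in replicate 3 alone, at rank 24866. The ValRS IDR summit, of rank 4521, lay 492 bp upstream, towards Kdm4B, a histone demethylase gene that starts 513 bp away on the opposite strand. This summit was thus much nearer to the start site of Kdm4B than to that of ValRS. With LeuRS-m, HisRS and ValRS brought the count within 1000 bp to 18 of 35, against 33.5% of all coding genes.

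In the complete lists of 30000 most members had a summit near a start site, as did much of the genome. In the pooled list 28 of 35 members had a summit within 250 bp, against 50.7% of coding genes, and 30 within 1000 bp, against 64.7%. In replicates 1, 2 and 3 there were 22, 26 and 26 members within 250 bp, against 45.4%, 50.5% and 47.1% of coding genes. Within 1000 bp there were 27, 29 and 28, against 62.8%, 63% and 63.3%. The cytosolic count within 250 bp was 17 of 20 in every replicate, and the mitochondrial count was 5, 9 and 9 of 15 (33.3%, 60% and 60%). The mitochondrial share was thus below that of all coding genes in replicate 1 and above it in replicates 2 and 3. It was also above it in the pooled list, with 10 of 15 genes (66.7%).

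The ranks of the bound synthetase genes spread over most of the IDR list. Their median IDR rank was 2866, or 2645 for the cytosolic and 5599.5 for the 2 mitochondrial genes, and that of all 3407 bound coding genes was 3052. The difference was not tested. Of the 15 genes 1 ranked within the first 1000, 7 between there and rank 3000, and 7 beyond. Of all bound coding genes 14.8%, 34.3% and 51% did.

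Nearly every bound member shared its promoter region with another gene. An opposite-strand coding start site lay within 500 bp upstream of 22 of the 35 members (62.9%), against 27.4% of all coding genes. Members with such a partner were bound in 14 of 22 cases and the other members in 1 of 13. The bound ones include AspRS, whose summit lay at another start site than its partner. Among all coding genes the shares were 47.3% with a divergent partner and 15.8% without. The cytosolic genes had a divergent partner in 15 of 20 cases, of which 12 were bound. The mitochondrial genes had a partner in 7 of 15 cases, of which 2 were bound. The compartments thus also differed in how often a member belonged to such a pair.

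The summits lay between the start sites of the pair in 11 of 14 bound divergent members, and in 70.7% of all bound divergent coding genes. The divergent partner of AspRS, Lfg, lay at its first start site and not at the bound one. All 15 summits were upstream of the member's start site, as 83.4% were over all bound coding genes. The offsets ran from -195 to -10 bp with a median of -137 bp, against -83 bp over all bound coding genes. In 11 of the 15 genes the summit lay 100 to 200 bp upstream, against 35.1% of bound coding genes. By annotation 12 of the summits were intergenic and 3 exonic, those of AspRS, LysRS and SerRS.

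**Figure D3:**
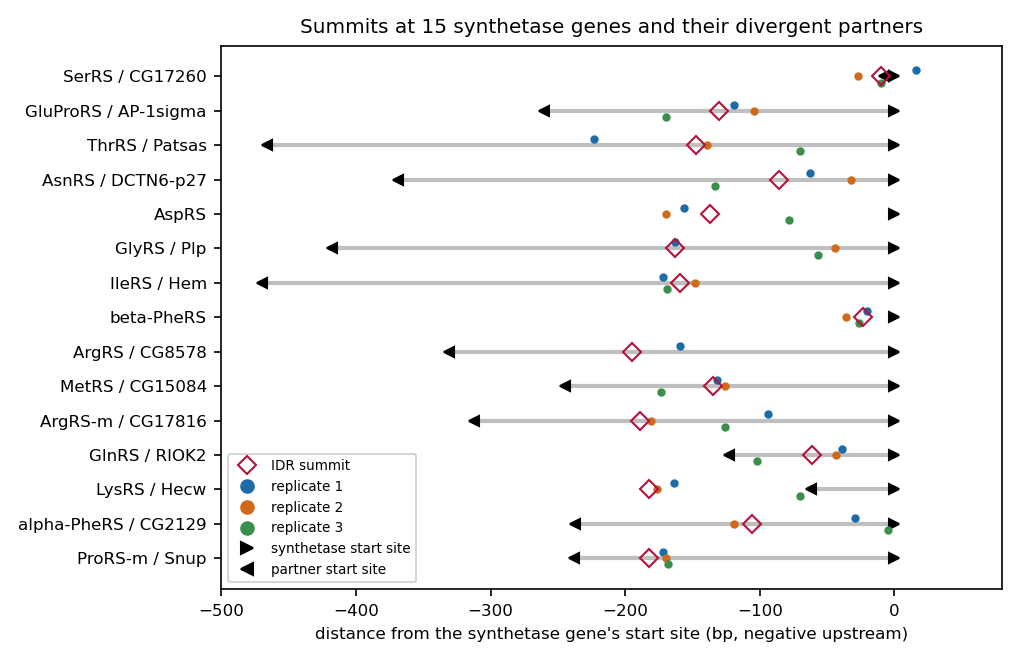
Distance (bp) of the IDR summit (diamond) and of the strongest replicate summits within 250 bp (points) from the start site of each of the 15 bound synthetase genes. Negative values are upstream, and the divergent partner's start site is drawn with a bar between the pair. Replicate summits beyond 250 bp are not drawn, as those of ArgRS in replicates 2 and 3. No partner is drawn for beta-PheRS, which has none within 500 bp, or for AspRS, whose summit is at another start site. Summits lie upstream, with a median offset of -137 bp.

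The summit was nearer to the other gene in 7 of the 15 cases and nearer to the synthetase gene in 7, with GluProRS at the same distance of 130 bp from its own start site and from that of AP-1sigma, a clathrin adaptor subunit gene. ArgRS, ArgRS-m, AspRS, LysRS, MetRS, ProRS-m and SerRS had another start site nearer. The genes with the synthetase start site nearest were AsnRS, GlnRS, GlyRS, IleRS, ThrRS, alpha-PheRS and beta-PheRS. The partners included Plp, a centrosome gene, beside GlyRS, Hem, of the WAVE actin regulator, beside IleRS, RIOK2, a kinase of ribosome assembly, beside GlnRS, and Snup, a nuclear import adaptor for small RNA particles, beside ProRS-m. When a summit counted only for a gene with the nearest start site, 9 of 35 members were bound (25.7%), against 20% of all coding genes. The cytosolic count was then 8 of 20 and the mitochondrial count 1 of 15. ArgRS-m was kept through a second, weaker IDR summit 11 bp downstream of its start site.

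**Figure D4:**
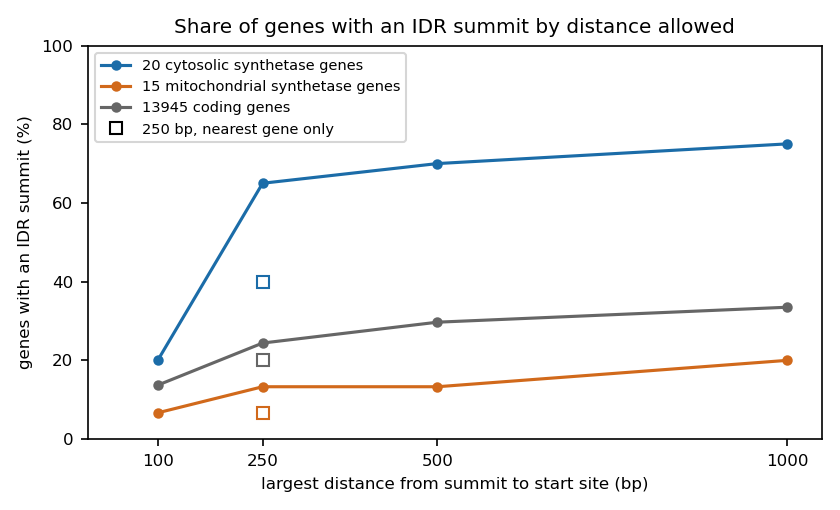
Share of genes (%) with an IDR summit against the largest distance allowed to a start site (100, 250, 500 or 1000 bp), with squares for the count in which a summit is given only to the nearest gene. At 100 bp cytosolic genes stand at 20%, mitochondrial ones at 6.67% and all coding genes at 13.7%, and at 1000 bp at 75%, 20% and 33.5%.

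The member shown first is beta-PheRS, the only bound gene with no divergent partner, whose nearest other start site, that of the myosin gene jar, lay 6786 bp from the summit. Its peak spans chr3R:24252628-24252816, and the strand of the gene is shown from 73 to 1 bp before the start site, on the minus strand of dm6, from the RefSeq Release 6 genome. The capitals mark the core of Motif 1, a promoter element, here on the opposite strand.
beta-PheRS, chr3R:24252680-24252752: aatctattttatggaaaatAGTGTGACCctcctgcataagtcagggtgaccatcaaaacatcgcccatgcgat

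The Motif 1 core, GGTCACACT, was searched on both strands from 250 bases before to 50 after the canonical start site. It was found at 4 of 35 members (AsnRS-m, GlnRS, ProRS-m and beta-PheRS) and at 5.87% of 13944 coding promoters. At IDR summits it lay within 50 bp of that of beta-PheRS alone of the 15, and of 1.17% of all 6659.

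The other member windows within 50 bp of a bound summit are shown because they hold a searched word, off any exon. In ArgRS-m the capitals mark GAGAGAG, a repeat bound by the factor Trl. In GlnRS and ProRS-m they mark CGATA, the core of the BEAF-32 insulator site, on either strand. SerRS and beta-PheRS also had CGATA within 50 bp of the summit, in SerRS at an exonic summit that is not shown, and in beta-PheRS outside the stretch given.
ArgRS-m, chr3R:7886806-7886906, plus strand: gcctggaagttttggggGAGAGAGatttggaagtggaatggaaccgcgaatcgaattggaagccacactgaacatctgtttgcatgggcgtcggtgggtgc
GlnRS, chr3R:25265732-25265832, minus strand: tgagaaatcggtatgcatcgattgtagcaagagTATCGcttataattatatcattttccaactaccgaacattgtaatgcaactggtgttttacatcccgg
ProRS-m, chr3L:2651982-2652082, minus strand: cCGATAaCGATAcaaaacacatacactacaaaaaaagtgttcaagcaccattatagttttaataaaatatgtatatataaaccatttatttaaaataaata
ProRS-m held 2 copies of CGATA near the end of the window that faces its partner Snup. The word GAGAGAG occurred at the promoter of ArgRS-m alone of the members and at 6.21% of coding promoters. CGATA was found at 22 of 35 member promoters and at 47% of all, and at 4 of 15 member summits and 17.6% of all IDR summits.

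A pair of whole intergenic stretches is shown for the layout of a divergent promoter. They were chosen after the values were seen, among bound divergent pairs other than that of MetRS and those already shown, as pairs at least 100 bp apart, short enough to print whole and with no exon between. The stretch between AP-1sigma and GluProRS has 259 bases with the summit at the midpoint, and that between CG2129 and alpha-PheRS has 236. Both read towards the synthetase gene on the minus strand, and capitals mark CGATA on either strand.
GluProRS, chr3R:23958392-23958650: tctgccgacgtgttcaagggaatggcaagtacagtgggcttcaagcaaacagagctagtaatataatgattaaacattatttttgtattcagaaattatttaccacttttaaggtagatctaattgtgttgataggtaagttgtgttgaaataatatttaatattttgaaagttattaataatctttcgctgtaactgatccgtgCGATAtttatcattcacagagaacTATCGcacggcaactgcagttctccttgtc
alpha-PheRS, chrX:8145603-8145838: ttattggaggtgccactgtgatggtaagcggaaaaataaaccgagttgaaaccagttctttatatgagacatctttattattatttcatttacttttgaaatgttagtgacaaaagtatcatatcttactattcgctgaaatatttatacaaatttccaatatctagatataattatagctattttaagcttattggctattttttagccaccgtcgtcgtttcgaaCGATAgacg
In GluProRS both copies of the word lay in the last 54 bases before the start site, away from the summit 130 bp upstream, and in alpha-PheRS the copy began 9 bases before it. The IDR summit of alpha-PheRS lay at -106 bp, while its replicate summits lay at -29, -119 and -5 bp, so that replicates 1 and 3 placed it near the start site.

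The promoter word seen most often relative to all genes was the E-box CAGCTG, at 17 of 35 members (48.6%) against 17.9% of coding promoters. It was found in 10 of 20 cytosolic and 7 of 15 mitochondrial promoters. Members with it were bound in 7 of 17 cases and members without it in 8 of 18. Over all coding genes the word was at 24% of bound promoters, above its share of all promoters. No member's summit had it within 50 bp, while 5.99% of all IDR summits did. Its first base lay at a median of -33 bp from the start site in members and -53 bp over all promoters. By the same count it was found at 9.68% of cytosolic and 54.8% of mitochondrial ribosomal protein promoters.

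The remaining words were at few members. The DRE, TATCGATA, which contains CGATA, was at 5 promoters (AlaRS, ArgRS, IleRS, PheRS-m and TrpRS) against 8.94% of all, and at no member summit. The E-box CACGTG was at 2 (GlnRS and LeuRS-m) against 4.29%, and CATCNCTA, a form of Motif 7, at 2 (AlaRS and GluProRS) against 6.33%. CAACACTG was at 2 (GlyRS and beta-PheRS) against 3.44%, and AGGGGAAA at 0 against 0.81%. A match describes these letters only and does not show that a factor binds there.

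Other genes of tRNA use were bound in 15 of 31 cases, against 24.4% of all coding genes. Among the scaffold proteins of the synthetase complex AIMP1 was bound, with replicate ranks of 3674, 4065 and 3782, and AIMP2 and AIMP3 were not. Slimp, a mitochondrial relative of SerRS, was bound at IDR rank 6476. GatA, a subunit of the amidotransferase that makes mitochondrial glutaminyl-tRNA, was bound and GatC was not. Of 7 genes of tRNA processing and modification 5 were bound. The RNA-binding protein gene La was bound at IDR rank 3231, the 3′ processing nuclease gene RNaseZ at 2366 and the tRNA methyltransferase gene Mt2 at 5405, while Elp3 and Nsun2 were not bound.

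Carriers and starvation genes gave a mixed picture. The elongation factor gene eEF1alpha1 was bound with ranks of 1763, 3497 and 1608, and eEF1alpha2 and the mitochondrial mEFTu1 were not. The amino acid starvation factor crc (ATF4 in mammals) was bound at IDR rank 5256, and Thor, a translation inhibitor, at 832, while the kinase gene Gcn2 was not. Thor ranked 6206, 536 and 5507 by summits within 250 bp. Its IDR summit lay at -242 bp, close to that limit, and a stronger replicate summit just beyond the limit would not be counted in these ranks. Whether replicates 1 and 3 had such a summit was not examined. Of 12 genes of RNA polymerase III transcription 4 were bound, and of these Brf was the strongest with ranks of 410, 1069 and 862.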

How the data were processed

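Peak lists on dm6 were analysed: the list that passed IDR, the pooled list and 3 replicate lists of 30000 peaks and background regions each, called with a control alignment per the deposited file lists. Aligner and peak caller: not given in the sources used here. Column 7, the signal deposited by the authors, has no stated scaling and was used to rank peaks within a list. The dm3 lists were not used here. Lists hold no read counts, so depth is unknown. The labels call the replicates biological and do not say whether each was a separate collection of flies.

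Start sites came from the Ensembl BDGP6 annotation and sequences from the RefSeq Release 6 genome, with coordinates counted from 1. A gene had a promoter summit where a summit lay within 250 bp of any of its start sites, and the strongest such peak gave its rank. Members and lists were chosen with earlier results of these data known. All members were named. Pathway genes were 33 listed symbols, of which 31 matched distinct genes. Not every pathway gene is reported by name here. Alternatives were other distances, lists, thresholds, start sites and each replicate left out. The matching of summits to start sites was tested on simulated data. The tools were pandas 2.3.3, numpy 2.4.6 and scipy 1.17.1 under Python 3.11.15, with matplotlib 3.10.9 for plots.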

Additional observations from a re-analysis of the deposited data

How the results depend on the processing

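Of 35 members 15 were bound as reported. The count was 5 within 100 bp of a start site, 8 with the 3000 strongest IDR peaks, 1 with the 1000 strongest and 9 when a summit counted for the nearest gene only, an alternative chosen after seeing the data. The cytosolic count of 13 became 4, 8, 1 and 8, and the mitochondrial count of 2 became 1, 0, 0 and 1 in these settings. Of all coding genes 1917 were bound within 100 bp, 1671 with the 3000 and 503 with the 1000 strongest peaks, against 3407 as reported and 2783 by nearest gene. The mitochondrial count was 1 with the list of replicate 2 or of replicate 3 alone. Replicates left out in turn gave 14 members each time, 12 cytosolic and 2 mitochondrial, and 3193 to 3241 coding genes. With the other lists, distances, definitions and start sites, the member count ran from 10 to 18. With summits within 1000 bp the mean replicate rank of LeuRS-m went from 6958 to 2315. No paired analysis was possible because there is 1 group. Depth is unknown, so absence from a list does not show absence of binding.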
